A study of Homo sapiens with 4 samples.

Results

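Fatty acids are built in the cytosol and burned in mitochondria, and 41 genes of these opposing pathways were measured in LASCPC-01 cells given either PBS or fluoxetine. The genes were chosen by name from the known enzymes of these pathways, at a time when earlier results of these data were known. All 41 are among the 16376 genes listed. By role, 13 belong to synthesis, elongation and desaturation, 4 to the activation of fatty acids, 22 to mitochondrial import and oxidation and 2 are regulators. The import and oxidation genes comprise 6 of import, 13 of the oxidation spiral and 3 of electron transfer, and those of the spiral include ACAA1, whose enzyme is peroxisomal. A mean of at least 0.1 FPKM over the libraries was required for testing, which 40 members met. FPKM are fragment counts divided by gene length and library depth.

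LASCPC-01 is a cell line of neuroendocrine prostate cancer (NEPC), made by expressing NMYC together with activated AKT1, and fluoxetine is an antidepressant that blocks serotonin reuptake. Both groups are the same line, labelled WT, and were grown in modified HITES medium, which holds hydrocortisone, insulin, transferrin, estradiol, selenite and serum. Group sizes were 2 PBS and 2 fluoxetine samples. The labels give day 3 and no dose, whereas the methods text gives 5 µM and 48 h, and the fluoxetine titles hold an unexplained PP. The results hold for 1 cell line, and nothing in the labels says that the samples of a group came from separate cultures. The p-values weigh the group difference against the spread between these samples, estimated with help from all genes tested. That spread may be technical.

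Synthesis starts from citrate, which ACLY splits to acetyl-CoA. Acetyl-CoA carboxylase turns this into malonyl-CoA, fatty acid synthase joins the units into palmitate, and elongases and desaturases lengthen and unsaturate the chain. For oxidation, the fatty acid is joined to CoA, carried into mitochondria as its carnitine ester, and shortened by a cycle of dehydrogenation, hydration, dehydrogenation and thiolysis. Malonyl-CoA inhibits the carnitine step, which keeps both pathways from running at once. High fatty acid synthase is a known trait of prostate cancer.

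The reads behind the FPKM could be solved as whole numbers for 99.9% of the genes above 0. The sequencing depth behind the FPKM came to 32873603 and 34756748 reads for PBS, and fluoxetine had 34806710 and 34831389. A tested member held between 12 and 55599 reads in a library. Of 10 neuroendocrine markers, 6 had a mean of at least 0.1 FPKM, with DLL3, NCAM1 and INSM1 among them, and CHGA, CHGB, NEUROD1 and SCG3 were below it. The epithelial markers KRT8, KRT18, EPCAM and CDH1 were all present. Summed FPKM of the adipocyte markers that are listed were between 0.128 and 0.235, and those of the endothelial markers between 0.105 and 0.218. Fibroblast markers summed to 2.85 and 3.14 FPKM with PBS and 1.97 and 2.83 with fluoxetine. FPKM depended on gene length to an unequal degree. Taken over genes, none of them an independent replicate, deviations from the mean of a gene correlated with log2 length at -0.29 in fluoxetine replicate 1, 0.19 in PBS replicate 2, and 0.06 and 0.05 in the remaining libraries.

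No enzyme of either pathway passed the test. By limma on log2(FPKM + 0.1), 0 of the 40 members had an adjusted p under 0.05, where 0.237% of the 12663 genes tested did, and the members' adjusted p ranged from 0.514 to 0.999. An unadjusted p under 0.05 was found for 6 members, SCD and ACSL3 with lower values in fluoxetine and ECI1, CPT1B, ACAA1 and ECHS1 with higher values. Of all genes tested, 8.51% had one, 4.79% with lower and 3.73% with higher values. With limma voom on the recovered reads, added once the data had been seen, 0 members and 0.376% of all genes passed, and the smallest adjusted p of a member was 0.288. For the members with at least 10 FPKM with PBS, the 95% intervals of the log2 fold change lay between -0.38 and 0.36, so larger changes than these lie outside the intervals of the well-measured enzymes.

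**Figure D1:**
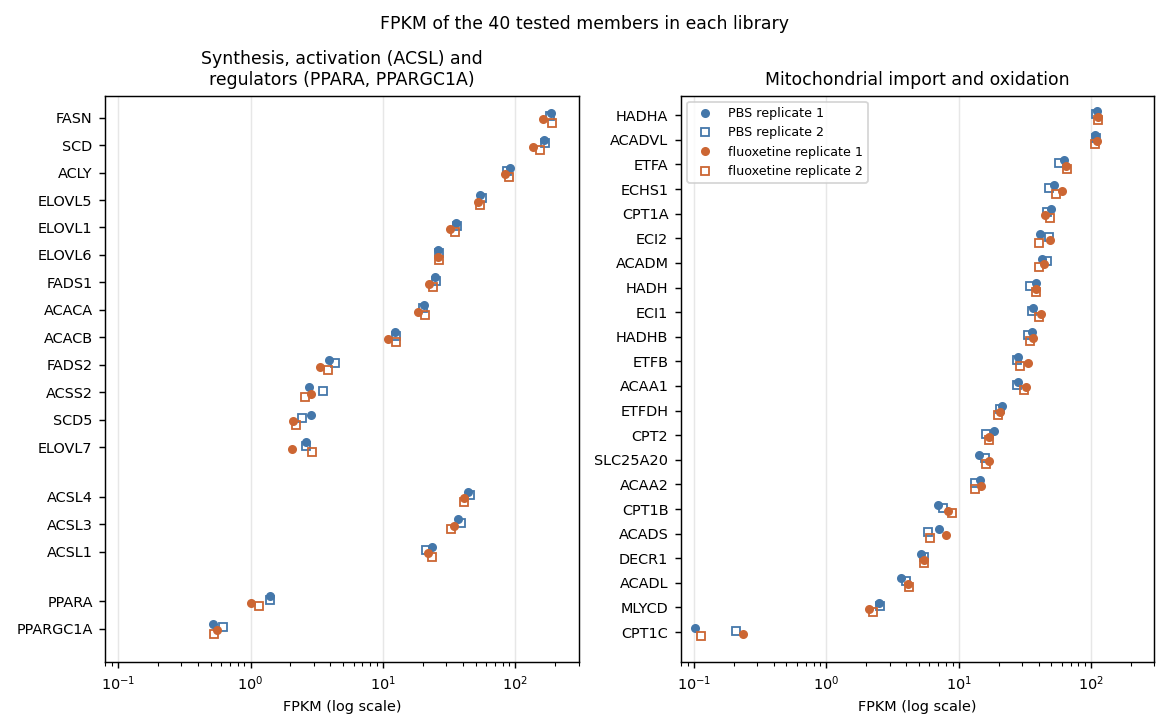
FPKM on a log scale (x axis) of the 40 tested members (y axis), with PBS in blue and fluoxetine in orange, replicate 1 as filled circles and replicate 2 as open squares. The 4 libraries of a gene nearly coincide for most members, and FASN, SCD, HADHA and ACADVL, all with a mean over 100 FPKM, are the 4 highest.

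The enzymes that supply and carboxylate acetyl-CoA differed by less than the spread between replicates. ACLY had 90.3 and 85.8 FPKM with PBS and 82.9 and 89.8 FPKM with fluoxetine, and the groups overlapped (log2 fold change -0.03, standard error (SE) 0.07, adjusted p = 0.934 from limma). ACSS2, which makes acetyl-CoA from acetate, had 2.74 and 3.56 FPKM with PBS and 2.88 and 2.58 FPKM with fluoxetine. ACACA, the cytosolic acetyl-CoA carboxylase, had 20.4 and 20.2 FPKM with PBS and 18.3 and 20.6 FPKM with fluoxetine, which places 1 fluoxetine library below and the other above both PBS libraries. Its log2 fold change was -0.06 (SE 0.08, adjusted p = 0.841). ACACB, the form at the outer mitochondrial membrane whose malonyl-CoA restrains import, had 12.3 and 12.6 FPKM with PBS and 10.9 and 12.5 FPKM with fluoxetine (log2 fold change -0.09, SE 0.09, adjusted p = 0.784). The ratio of ACACA to ACACB was between 1.60 and 1.68 in all 4 libraries, so the cytosolic form was the more abundant per length in each.

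FASN (GRCh38 chromosome 17, 82078333 to 82098332, minus strand in GENCODE 29) was the most abundant member with a mean of 179.7 FPKM. Its libraries had 184.6 and 183.9 FPKM with PBS and 161.6 and 188.6 FPKM with fluoxetine. Fluoxetine replicate 1 was thus low and replicate 2 was the highest of all 4. The log2 fold change was -0.08 (95% interval -0.26 to 0.11, adjusted p = 0.789 from limma). Without fluoxetine replicate 1 it was 0.03.

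Among the elongases, ELOVL1, which extends very long saturated chains, had 35.6 and 36.4 FPKM with PBS and 32.2 and 35.3 FPKM with fluoxetine, with no overlap but a log2 fold change of only -0.10 (SE 0.08). ELOVL5, which acts on polyunsaturated chains, and ELOVL6, which extends palmitate, had log2 fold changes of -0.04 and -0.001. Both overlapped between the groups. ELOVL7 was the lowest of these 4 elongases, with 2.64 and 2.61 FPKM with PBS and 2.06 and 2.93 FPKM with fluoxetine.

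The desaturases held the largest differences on the synthesis side. SCD, which puts the first double bond into palmitate and stearate, had 165.2 and 168.6 FPKM with PBS and 136.6 and 152.5 FPKM with fluoxetine. Neither fluoxetine library reached the lower PBS library, a pattern that 24.8% of all genes tested shared, and the mean was 13.4% lower. The log2 fold change of -0.21 (95% interval -0.38 to -0.04) had an unadjusted p of 0.0197 and an adjusted p of 0.525 from limma. SCD5, its paralog, had 2.88 and 2.44 FPKM with PBS and 2.09 and 2.19 FPKM with fluoxetine (log2 fold change -0.30, SE 0.14, adjusted p = 0.580). The ratio of SCD to SCD5 was between 57.4 and 69.6 in the 4 libraries and overlapped between the groups, so SCD carried nearly all of the stearoyl-CoA desaturase transcript in both.

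FADS1 and FADS2 are neighbours on chromosome 11 that desaturate polyunsaturated chains, and their exons overlap on opposite strands over 490 bases. FADS2 had 3.90 and 4.37 FPKM with PBS and 3.37 and 3.83 FPKM with fluoxetine (log2 fold change -0.19, SE 0.12, adjusted p = 0.639 from limma). FADS1 had 24.9 and 25.1 FPKM with PBS and 22.1 and 24.0 FPKM with fluoxetine (log2 fold change -0.12, SE 0.08, adjusted p = 0.648). Neither overlapped between the groups, and in both the lowest library was fluoxetine replicate 1.

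**Figure D2:**
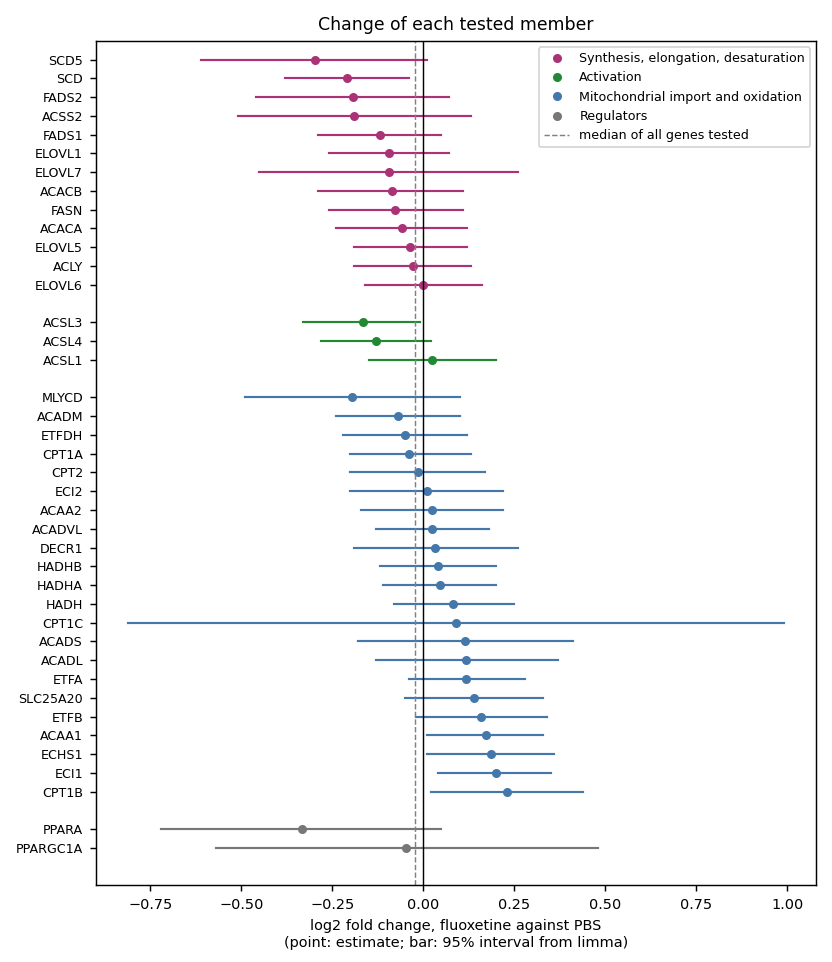
Log2 fold change of each tested member, fluoxetine against PBS (x axis), with the 95% interval from limma as a bar, by role in colour, and the median of all genes tested as a dashed line. All 13 synthesis genes lie at or left of 0 and 17 of the 22 import and oxidation genes lie right of it, while 6 intervals leave out 0.

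Long-chain acyl-CoA synthetases activate fatty acids for either pathway. ACSL3, a form found at lipid droplets, had 36.6 and 38.6 FPKM with PBS and 34.2 and 32.8 FPKM with fluoxetine. Its log2 fold change was -0.17 (95% interval -0.33 to -0.01, unadjusted p = 0.0421, adjusted p = 0.557 from limma). ACSL4, which prefers arachidonic acid, had 43.9 and 45.7 FPKM with PBS and 40.6 and 41.3 FPKM with fluoxetine (log2 fold change -0.13, SE 0.07, adjusted p = 0.613). Both groups were separate for these genes. ACSL1 overlapped, with 23.5 and 21.2 FPKM with PBS and 22.0 and 23.4 FPKM with fluoxetine (log2 fold change 0.02, SE 0.08, adjusted p = 0.955). ACSL5 held 1 read in PBS replicate 1 and 0 in the other libraries and was not tested. A count of 0 allows up to 3 reads.

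Import into mitochondria showed no common direction. CPT1A, the carnitine palmitoyltransferase of the outer membrane and the gate of import, had 49.3 and 46.7 FPKM with PBS and 44.9 and 48.6 FPKM with fluoxetine, with overlap (log2 fold change -0.04, SE 0.08, adjusted p = 0.900 from limma). CPT2, of the inner membrane, had 18.3 and 16.0 FPKM with PBS and 17.0 in both fluoxetine libraries (log2 fold change -0.01, SE 0.09, adjusted p = 0.976). SLC25A20, the carrier between them, had 14.1 and 15.8 FPKM with PBS and 16.8 and 16.1 FPKM with fluoxetine, without overlap (log2 fold change 0.14, SE 0.09, adjusted p = 0.629). MLYCD, which breaks down malonyl-CoA, had 2.48 and 2.55 FPKM with PBS and 2.11 and 2.26 FPKM with fluoxetine (log2 fold change -0.19, SE 0.14, adjusted p = 0.668).

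CPT1B, the muscle form, had 6.99 and 7.61 FPKM with PBS and 8.26 and 8.88 FPKM with fluoxetine. Its log2 fold change of 0.23 (95% interval 0.02 to 0.44) had an unadjusted p of 0.0348 and an adjusted p of 0.552 from limma. In GENCODE 29, 66.4% of its exon bases are shared with the readthrough gene CHKB-CPT1B on the same strand, so its reads are uncertain. The ratio of CPT1A to CPT1B was 7.05 and 6.13 with PBS and 5.43 and 5.47 with fluoxetine, lower in both fluoxetine libraries. An exact permutation test of 2 against 2 libraries cannot go below p = 0.333. CPT1C, the neuronal form, held 12 to 29 reads a library, too few for a direction (95% interval -0.81 to 0.99).

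The first step of the spiral belongs to dehydrogenases of different chain length. ACADVL, for very long chains, had 105.9 and 108.5 FPKM with PBS and 110.6 and 107.6 FPKM with fluoxetine (log2 fold change 0.02, SE 0.07, adjusted p = 0.940 from limma). ACADM, for medium chains, had 42.6 and 46.0 FPKM with PBS and 44.0 and 40.4 FPKM with fluoxetine (log2 fold change -0.07, SE 0.08, adjusted p = 0.792). Both overlapped between the groups. ACADS and ACADL, for short and long chains, each had a log2 fold change of 0.12, with SEs of 0.14 and 0.11. By FPKM the order was ACADVL, ACADM, ACADS and ACADL in all 4 libraries, with no overlap between neighbours.

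The trifunctional protein carries the following steps for long chains. HADHA had 109.8 and 108.5 FPKM with PBS and 113.3 and 112.1 FPKM with fluoxetine, without overlap but by a log2 fold change of only 0.05 (SE 0.07, adjusted p = 0.857 from limma). HADHB, its partner subunit, had a log2 fold change of 0.04 (SE 0.07) and overlapped. HADHA was between 3.10 and 3.23 times HADHB per length in the 4 libraries.

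ECHS1 and HADH act on shorter chains, and thiolases make the final cut of each cycle. ECHS1, the short-chain hydratase, had 52.4 and 48.1 FPKM with PBS and 60.3 and 54.0 FPKM with fluoxetine (log2 fold change 0.18, 95% interval 0.01 to 0.36, adjusted p = 0.555 from limma). ACAA1 had 28.1 and 27.6 FPKM with PBS and 32.0 and 30.8 FPKM with fluoxetine (log2 fold change 0.17, 95% interval 0.01 to 0.33, adjusted p = 0.552). Both were higher in each fluoxetine library, as were 16.7% of all genes tested. ACAA1 encodes the peroxisomal thiolase, and 19.7% of its exon bases overlap DLEC1 on the opposite strand. The mitochondrial thiolase ACAA2 overlapped between the groups, with a log2 fold change of 0.02 (SE 0.09), and the short-chain dehydrogenase HADH did not overlap, with 0.08 (SE 0.08).

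ECI1, ECI2 and DECR1 handle the double bonds of unsaturated chains. ECI1, an isomerase on chromosome 16 from 2239395 to 2252300, had the smallest p of all members. It had 36.4 and 35.5 FPKM with PBS and 42.0 and 40.6 FPKM with fluoxetine, a mean 14.9% higher (log2 fold change 0.20, 95% interval 0.04 to 0.35, unadjusted p = 0.0162, adjusted p = 0.514 from limma). ECI2 had 41.3 and 47.7 FPKM with PBS and 49.1 and 40.7 FPKM with fluoxetine, so its replicates differed more than its groups. DECR1 held 311 reads in PBS replicate 1 and 346 in each other library, a log2 fold change of 0.03 (SE 0.10).

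The electron transfer flavoprotein passes electrons from the dehydrogenases to the respiratory chain. Its subunits ETFA and ETFB had log2 fold changes of 0.12 (SE 0.07, adjusted p = 0.636 from limma) and 0.16 (SE 0.08, adjusted p = 0.603), both without overlap. ETFDH, the enzyme that receives these electrons, had 21.3 and 20.4 FPKM with PBS and 20.6 and 19.7 FPKM with fluoxetine (log2 fold change -0.05, SE 0.08, adjusted p = 0.859).

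PPARA, the nuclear receptor that turns on oxidation genes, had 1.40 and 1.39 FPKM with PBS and 1.01 and 1.16 FPKM with fluoxetine. These FPKM rest on 203 and 214 reads with PBS and 156 and 179 with fluoxetine. The groups did not overlap, and the log2 fold change of -0.33 (SE 0.18) had an adjusted p of 0.612 from limma. PPARGC1A, its coactivator, had 0.518 and 0.617 FPKM with PBS and 0.559 and 0.530 FPKM with fluoxetine (log2 fold change -0.05, SE 0.24, adjusted p = 0.972).

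Sequence upstream of SCD and ECI1 is shown because these genes had the smallest unadjusted p in each direction. The windows searched were the 250 bases before the RefSeq gene start on GRCh38.p14, chr10:100346983-100347232 on the plus strand for SCD and chr16:2251588-2251837 on the minus strand for ECI1. GENCODE 29 places starts further upstream, so that 109 bases of the SCD window and 180 of the ECI1 window are untranslated exon there, and the ECI1 window lies wholly within its GENCODE gene. The longest stretch outside those exons is printed for each, 141 bases at chr10:100346983-100347123 and 70 bases at chr16:2251615-2251684, written 5′ to 3′ on the gene's strand, with CCAAT and GGGCGG on either strand in capitals.
SCD: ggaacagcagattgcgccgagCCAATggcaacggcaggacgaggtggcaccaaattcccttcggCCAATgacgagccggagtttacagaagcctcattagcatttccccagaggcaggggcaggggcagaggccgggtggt
ECI1: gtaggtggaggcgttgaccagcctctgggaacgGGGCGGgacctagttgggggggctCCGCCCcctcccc

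A promoter entry matched 36 of the 41 members, and FASN, CPT1B, ACAA1, DECR1 and ETFDH had none. CCAAT, the letters of the box bound by NF-Y, stood 2 times in the SCD window and not in that of ECI1. It was found for 8 of 12 synthesis genes and 5 of 18 import and oxidation genes, against 37.0% of all 27305 genes with an entry. GGGCGG, the GC box, stood 2 times in the SCD window, both within the GENCODE exon, and 3 times in that of ECI1, and was found for 11 of 12 and 15 of 18 genes, against 46.2% of all. TCACNCCAC, the only form of the sterol response element searched, was in none of these 30 windows and in 1.09% of all. AGGTCA, the half-site of nuclear receptors, was in 2 of 12 and 0 of 18, against 14.6%. The 27305 genes include many that were not tested here, so their shares are not those of the genes expressed in these cells. These are matches of letters within 250 bases and not binding sites.

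Set side by side, synthesis and oxidation leaned opposite ways by small amounts. All 13 synthesis genes had a log2 fold change below 0, with a median of -0.09, where 56.5% of all genes were below 0 with a median of -0.02. Of the 22 import and oxidation genes, 17 were above 0, with a median of 0.06, where 43.5% of all genes were. The oxidation count was 11 after rescaling to TPM, 14 after quantile normalization and 18 after median centring. In the same order, the synthesis count was 13, 13 and 12. Rescaling to TPM put 68.5% of all genes below 0. Both fluoxetine libraries lay below both PBS libraries for 5 of 13 synthesis genes (ELOVL1, SCD, SCD5, FADS1 and FADS2), against 24.8% of all genes. They lay above both for 0 synthesis genes and 10 of 22 oxidation genes, against 16.7% of all genes. MLYCD, 1 of the 22, lay below both. Over all members, 19 were without overlap in either direction, against 41.6% of all genes tested. These are counts without a test, since members of a pathway are not replicates.

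The lean rested largely on 1 library. In fluoxetine replicate 1, the mean of the synthesis genes on the log2 scale was -0.18 against the PBS mean and that of the oxidation genes 0.11. In fluoxetine replicate 2 these were -0.05 and 0.02, where all genes tested stood at -0.03. Replicate 1 had 12 of 13 synthesis genes below both PBS libraries, where 42.2% of all genes were, and replicate 2 had 6 of 13, where 38.6% were. Above both PBS libraries were 16 of 22 oxidation genes in replicate 1, against 32.8% of all genes, and 10 of 22 in replicate 2, against 29.1%. Without fluoxetine replicate 1, the medians were -0.01 for synthesis and 0.03 for oxidation, and 7 of 13 synthesis genes were below 0 and 14 of 22 oxidation genes above it.

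**Figure D3:**
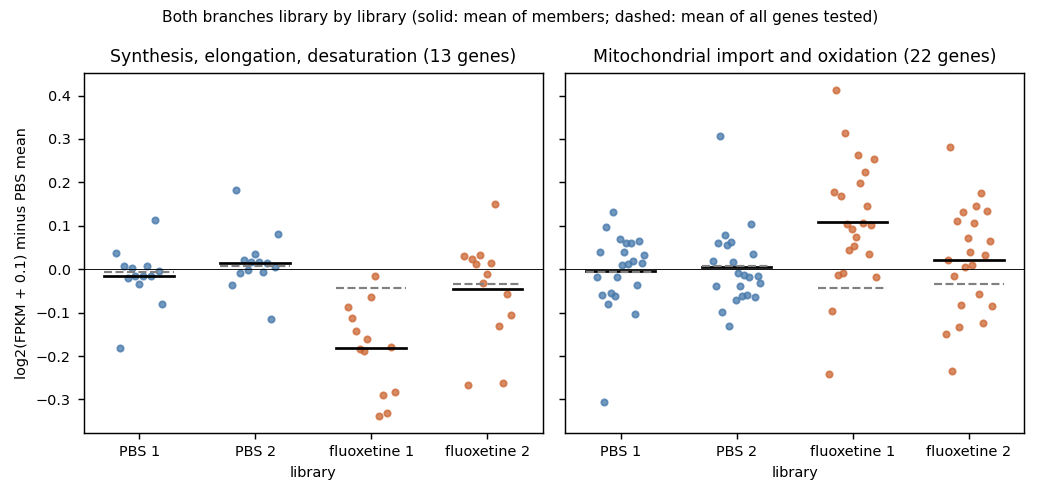
Each point is the log2(FPKM + 0.1) of a member minus its PBS mean (y axis) in each library (x axis), for synthesis (left) and import and oxidation (right), with solid lines for the mean of the members and dashed lines for the mean of all genes tested. Fluoxetine replicate 1 stands at -0.18 and 0.11, while replicate 2 stands at -0.05 and 0.02, close to the PBS libraries.

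Gene length moved with the same contrast. The synthesis genes had a median length of 4541 bp behind their FPKM and the import and oxidation genes one of 2322 bp, against 3838 bp for all genes tested. Over all genes tested, the median log2 fold change was 0.06 for the 2436 genes under 2000 bp, 0.003 for 4178 genes up to 4000 bp, -0.05 for 4212 genes up to 8000 bp and -0.12 for the 1827 longer ones. In fluoxetine replicate 1 these classes spanned 0.11 to -0.17 against the PBS mean, and in replicate 2 they spanned 0.02 to -0.05. By the length behind the FPKM, 7 of the 22 oxidation genes were under 2000 bp and 13 from there up to 4000 bp. Of the 13 synthesis genes, 9 were longer than 4000 bp. This length lay within 1 bp of the GENCODE 29 exon length for only 172 of the 16060 genes solved, so these classes hold for this length alone. With the length trend removed in each library, the medians were -0.04 and 0.08 by GENCODE 29 exon length and -0.04 and 0.04 by the length behind the FPKM, the latter chosen after seeing the data. The count of synthesis genes below 0 was then 10 and 8 of 13, against 13 as reported. That of oxidation genes above 0 was 18 and 16 of 22, against 17 as reported. FASN, ACACA and ACLY were above 0 by the length behind the FPKM. SCD stayed below 0 and ECI1 above 0 in every alternative. Both were picked for the smallest unadjusted p in their direction in these same libraries. With all libraries kept, 16 of the 40 tested members changed direction in at least 1 setting.

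**Figure D4:**
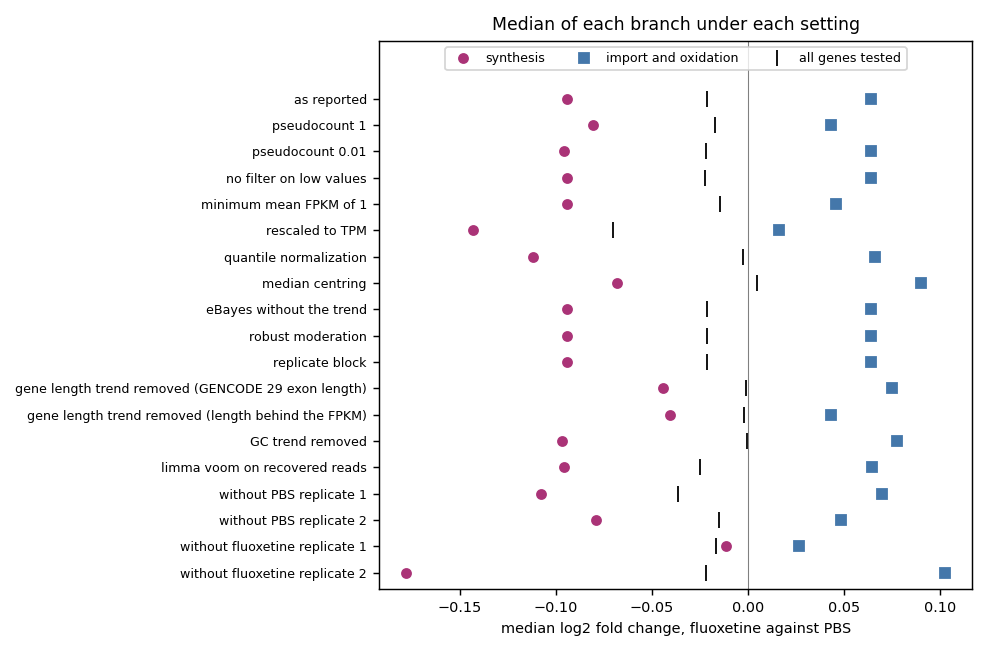
Median log2 fold change (x axis) of the synthesis genes (circles), the import and oxidation genes (squares) and all genes tested (bars) under each setting of the analysis (y axis). Synthesis lies left of oxidation in every setting, and the distance is least without fluoxetine replicate 1, where the medians are -0.01 and 0.03.

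Around these enzymes, 140 other genes of fatty acid metabolism were read from lists of the surrounding pathways, and 122 of them could be tested. One fell in fluoxetine by the adjusted test, HILPDA, and 0 rose, where 0.213% and 0.0237% of all genes did. These lists were written with earlier results of these data known, so the comparison with all genes is not a neutral one. Of the 20 storage and lipolysis genes tested, 14 were below 0, with a median of -0.03. Of all genes tested, 56.5% were below 0, with a median of -0.02. HILPDA, a hypoxia-induced protein of lipid droplets that inhibits the lipase ATGL, lies on chromosome 7 from 128455849 to 128458418. It had 54.7 and 52.6 FPKM with PBS and 36.9 and 39.9 FPKM with fluoxetine, and it fell by 0.48 on the log2 scale (95% interval -0.64 to -0.32, adjusted p = 0.0181 from limma). The adjusted p was 0.420 without the filter on low values and 0.412 without the variance trend, and between 0.102 and 0.405 with 1 library left out.

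G0S2, another inhibitor of ATGL, had 0.625 and 1.22 FPKM with PBS and 0.230 and 0.328 FPKM with fluoxetine (log2 fold change -1.38, SE 0.31, adjusted p = 0.176 from limma). These values rest on only 18 and 37 reads with PBS and 7 and 10 with fluoxetine. PNPLA2, which encodes ATGL itself, had 82.3 and 93.3 FPKM with PBS and 93.7 and 88.3 FPKM with fluoxetine. PLIN2, a lipid droplet coat protein, held at most 6 reads in any library, whereas PLIN3 had between 24.4 and 27.4 FPKM.

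Of 13 tested genes that control synthesis through SREBP and ChREBP, 8 were below 0, where 56.5% of all genes tested were. SREBF1 itself overlapped between the groups, with 37.7 and 40.4 FPKM with PBS and 37.2 and 38.7 FPKM with fluoxetine. INSIG2, which holds SREBP in the endoplasmic reticulum, had 4.004 and 3.961 FPKM with PBS and 3.09 and 2.72 FPKM with fluoxetine (log2 fold change -0.45, SE 0.12, adjusted p = 0.329 from limma). INSIG1, its SREBP-induced paralog, had 44.2 and 42.7 FPKM with PBS and 38.7 and 37.3 FPKM with fluoxetine (log2 fold change -0.19, SE 0.07, adjusted p = 0.525). Among citrate and NADPH suppliers, 6 of 7 were below 0, and CS and ME1 had the smallest p, with log2 fold changes of -0.08 and -0.06. Of 8 elongation partners and other desaturases, 3 were below 0, and HSD17B12 and ELOVL2 led at -0.18 and 0.54. ELOVL2 met the limit of 0.1 FPKM for testing only through fluoxetine, with means of 0.0782 FPKM with PBS and 0.149 FPKM with fluoxetine.

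On the oxidation side, 12 of 18 other mitochondrial acyl-CoA genes were above 0, where 43.5% of all genes tested were. ACAD8, of valine breakdown, had 9.52 and 8.47 FPKM with PBS and 11.1 and 10.8 FPKM with fluoxetine (log2 fold change 0.28, SE 0.09, adjusted p = 0.464 from limma). HSD17B10, of isoleucine breakdown, had a log2 fold change of 0.18 (SE 0.08). For peroxisomal oxidation, 8 of 15 were above 0. DECR2 had 10.8 and 11.1 FPKM with PBS and 14.2 and 12.6 FPKM with fluoxetine (log2 fold change 0.28, SE 0.09, adjusted p = 0.432), and PEX11A overlapped with -0.55 (SE 0.22). Mitochondrial fatty acid synthesis had 5 of 8 above 0, with MCAT at 0.17 and MECR at 0.20.

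Of 12 uptake and binding genes, 8 were below 0, where 56.5% of all genes tested were, a share that applies to the next counts too. VLDLR and ACBD3 led at -0.58 and -0.13, and FABP5 was the highest at 202.8 to 239.1 FPKM. Of 12 PPAR partners and targets, 7 were below 0. FGF21 and ANGPTL4, both among these 7, had the smallest p at log2 fold changes of -1.26 and -1.27, each with a fluoxetine library at 0. They met the limit of 0.1 FPKM for testing only through PBS. Their means were 0.187 and 0.304 FPKM with PBS and 0.0213 and 0.0881 FPKM with fluoxetine. The direction of both is thus partly set by that limit. FGF21 held only 9 and 8 reads with PBS and 2 and 0 with fluoxetine, and ANGPTL4 held 22 and 18 against 0 and 12. Of 9 genes listed for AMPK, 5 were below 0, with STK11, STRADA and CAB39 counted besides its subunits. PRKAA1, a catalytic subunit, had 10.03 and 10.91 FPKM with PBS and 8.42 and 8.87 FPKM with fluoxetine (log2 fold change -0.27, SE 0.09, adjusted p = 0.478 from limma). PRKAB2, a regulatory subunit with the next smallest p, was at -0.18.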

How the data were processed

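RNA of 2 PBS and 2 fluoxetine samples of LASCPC-01 cells was sequenced as paired-end reads, and the authors deposited FPKM, 1 value per gene and library. The submitters' processing notes name fastp, HISAT2, HTSeq and GRCh38, and the annotation is not given in the sources used here. Library kits differ between the sources, TruSeq Stranded in the labels and VAHTS Universal in the methods. The study's methods name a count test, which FPKM do not allow. The log2(FPKM + 0.1) values were therefore tested with limma 3.58.1 under R 4.3.3, using a linear model and empirical Bayes moderation with a trend, for the 12663 genes whose mean reached 0.1 FPKM, and p was adjusted over them by the Benjamini-Hochberg method. Fold changes on this scale understate those of low genes.

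Whole reads were solved as the shortest whole-base gene length that gave whole reads in all libraries within 0.002 reads, at a depth shared by 89 genes whose GENCODE 29 exon length was used. True reads can be multiples of these. Scripts were tested on simulated data. Intervals cover the spread between libraries as limma estimates it.

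Replicate numbers come from the titles. Deviations from the group mean correlated at 0.035 between libraries that share a number, and at 0.101 over genes with a mean of at least 10 FPKM. Replicates differed by more than read-counting noise (chi-square divided by its degrees of freedom was 9.27 within PBS and 11.2 within fluoxetine), so none was taken as a library deposited again, which does not show separate cultures.

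The members and lists were chosen with earlier results of these data known. Full values are given for the pace-setting enzymes and regulators, for the 3 members with the smallest p in each direction and branch. Of each other list, the 2 genes with the smallest p are named, some by their fold change alone, and further genes were named after their values were seen. Figures used Python 3.11.15 and matplotlib 3.10.9, and the lowess span for length and GC trends was 0.3.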

Additional observations from a re-analysis of the deposited data

How the results depend on the processing

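No member passed an adjusted p of 0.05 under any alternative, the smallest being 0.286 (SCD, with the replicate block) against 0.514 as reported. Over all genes, limma called 30 genes as reported, 16 after quantile normalization, 0 without the filter on low values (1069 at an unadjusted p under 0.05) and 0 without the variance trend (933 at an unadjusted p under 0.05). Voom on the recovered reads called 53, and leaving out 1 library gave 2 to 12. A lone library was assumed to vary like the other group. The replicate block gave 64 calls, though the numbers were not shown to pair the samples, and it changed no call of a member. The oxidation median was 0.0164 after rescaling to TPM against 0.06 as reported. The difference between the medians of synthesis and oxidation was -0.16 as reported and -0.28 to -0.04 with 1 library left out, the last without fluoxetine replicate 1. Length behind the FPKM, GC and voom were alternatives added once the data had been seen.

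Of 558 log2 fold changes of members under settings that kept all libraries, 527 kept their direction and 31 turned; causes were not tested. Rescaling to TPM turned ACSL1 (-0.0242), ACADVL (-0.0228), HADHA (-0.0017), HADHB (-0.0061), ACAA2 (-0.0227), ECI2 (-0.0373) and DECR1 (-0.0136). Quantile normalization turned ACADVL (-0.041), HADHA (-0.005), ECI2 (-0.0134) and PPARGC1A (0.0666), and median centring turned ELOVL6 (0.0252) and CPT2 (0.0119). Removing the trend with GENCODE 29 exon length turned ACACA (0.0461), ACACB (0.0268), ELOVL6 (0.0457), CPT2 (0.0712) and PPARGC1A (0.043). With the length behind the FPKM, ACLY (0.002), ACACA (0.0564), ACACB (0.0202), FASN (0.0111), ELOVL6 (0.0628), CPT1A (0.0144), ECI2 (-0.0498), DECR1 (-0.0126) and PPARGC1A (0.0683) turned. Removing the GC trend turned ELOVL5 (0.0094), ELOVL6 (0.0487), CPT2 (0.0526) and PPARGC1A (0.0078).

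Leaving out 1 library turned 15 members. The range was -0.0859 to 0.0295 for ACLY, -0.1429 to 0.0241 for ACACA, -0.1849 to 0.0109 for ACACB, -0.1896 to 0.0333 for FASN, -0.0165 to 0.0144 for ELOVL6 and -0.3384 to 0.1494 for ELOVL7. It was -0.0487 to 0.0956 for ACSL1, -0.0964 to 0.0202 for CPT1A, -0.2349 to 0.4136 for CPT1C and -0.1122 to 0.0835 for CPT2. It was -0.0828 to 0.3129 for ACADS, -0.056 to 0.1057 for ACAA2, -0.1248 to 0.1457 for ECI2, -0.0025 to 0.0696 for DECR1 and -0.1536 to 0.0606 for PPARGC1A. Depth limited CPT1C most, with 12 to 29 reads a library.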
